A study of Mus musculus with 8 samples.

Results

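The BCL2 family genes outside a separate list of p53 targets were examined in sciatic nerve of mouse pups. These were 10 named genes, found by symbol among the 55487 gene rows of the deposited table. Whether p53 acts on any of them was not tested. All 10 had a row and all 10 had enough counts to be tested, among 15056 tested genes. They comprise 4 survival genes (Bcl2, Bcl2l1, Mcl1, Bcl2l2), 2 effector genes (Bak1, Bok) and 4 genes of the BH3-only class (Bid, Bad, Bcl2l11, Bmf). Polyadenylated RNA of whole nerves at postnatal day 6 was sequenced in 8 libraries, an age when Schwann cells, the glia of peripheral nerve, multiply and start to form myelin. The 4 CNP-Cdk7cKO libraries came from mice of genotype CNPcre/+ Cdk7lox/lox, in which Cre recombinase driven from 1 Cnp allele, a locus active in Schwann cells, recombines floxed Cdk7. The 4 Ctrl libraries came from mice of genotype CNP+/+ Cdk7lox/lox, which carry the same floxed Cdk7 alleles, an intact Cnp locus and no Cre. The 2 groups therefore also differ in the Cnp locus itself, and no group carried Cre with an unfloxed Cdk7. Nothing in the labels ties a library to its own animal, and p-values here cover no more than the spread between libraries, which may be technical.

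BCL2 family proteins decide at the outer mitochondrial membrane whether a cell commits to apoptosis. Survival members hold the effectors BAK and BAX in check, whereas the effector BOK is known to act largely without their restraint, and BH3-only proteins, which share a short helix called the BH3 domain, bind the survival members or the effectors and tip the balance towards release of cytochrome c. Mcl1 has a messenger and a protein that turn over fast, so its level is often read as a gauge of ongoing transcription when the kinases of RNA polymerase II, among them CDK7, are lost or inhibited.

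The libraries held between 16897231 and 21527886 estimated counts. Expression is given as CPM, the count of a gene scaled to the size of its library with TMM factors, and each fold change is CNP-Cdk7cKO over Ctrl. A gene was called at an adjusted p under 0.05 by the quasi-likelihood F test of edgeR, adjusted over all 15056 genes by the Benjamini-Hochberg method. The targeted gene Cdk7 measured 9.62, 11.8, 12.7 and 12.1 CPM in CNP-Cdk7cKO 1 to 4, against 21.7, 22.2, 21.4 and 20.6 CPM in Ctrl 1 to 4, and the groups did not overlap. By Xist and Y-linked counts all 4 CNP-Cdk7cKO libraries and Ctrl 1 were female and Ctrl 2, 3 and 4 male, so Ctrl 1 was the only female control, and against the other Ctrl libraries sex and genotype cannot be told apart. Skeletal muscle markers made up 0.0111 to 0.0714% of counts in CNP-Cdk7cKO and 0.0577 to 0.563% in Ctrl. The Schwann cell markers fixed for the check were all detected and took 9.07 ± 0.373% of counts in CNP-Cdk7cKO and 11.7 ± 0.560% in Ctrl (SD, n = 4 each). In whole nerve, fewer cells of a type and less RNA per cell cannot be told apart.

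Of the 10 members, 2 were lower in CNP-Cdk7cKO nerves and 0 were higher. Among all tested genes 6.6% were called lower and 5.07% higher, 11.7% in all. The 2 members that fell were Bmf, a BH3-only gene, at 0.625 times the Ctrl level, and the survival gene Bcl2, at 0.869 times. Mcl1, Bcl2l1, Bcl2l2, Bak1, Bok, Bid, Bad and Bcl2l11 did not pass. At an unadjusted p under 0.05 the counts were 3 lower (Bmf, Bcl2, Bcl2l11) and 1 higher (Bid), beside 13.4% lower and 12.7% higher over all tested genes. The median log2 fold change of the 10 members was -0.01, beside 0.00 over all tested genes, and the median size of the change regardless of sign was 0.12, the same as over all genes.

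**Figure D1:**
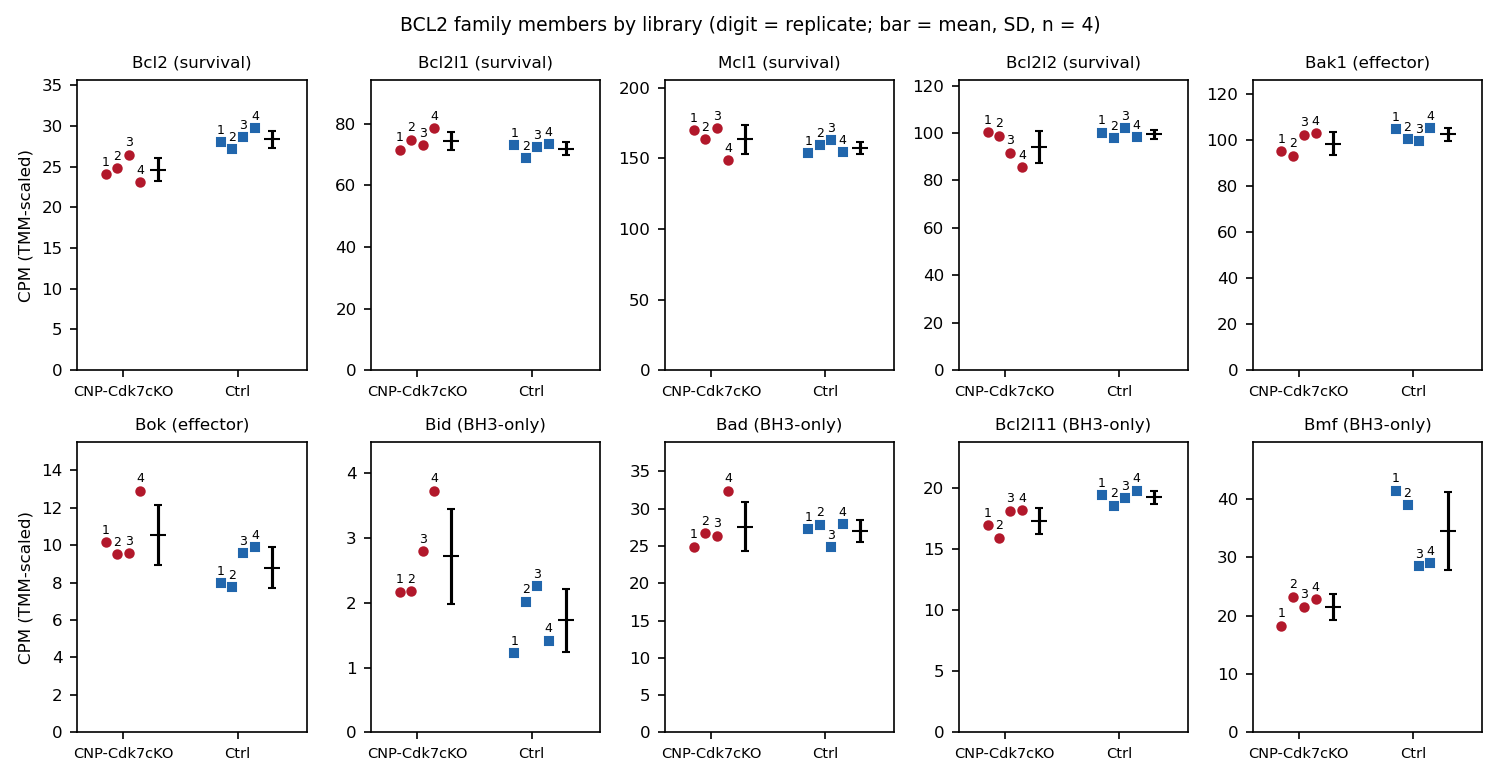
CPM of each of the 10 BCL2 family members (y axes, from 0) in the 4 CNP-Cdk7cKO (circles) and 4 Ctrl (squares) libraries, with the replicate number at each point and the mean with SD beside them. Bmf, Bcl2 and Bcl2l11 show no overlap between groups, as in 18.8% of all tested genes. Bmf shows the widest gap, 18.3 to 23.2 CPM in CNP-Cdk7cKO against 28.4 to 41.4 CPM in Ctrl.

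Bmf encodes a BH3-only protein that is known to sit on the actin and myosin V cytoskeleton in healthy cells and to bind survival members when released. It measured 18.3, 23.2, 21.5 and 22.8 CPM in CNP-Cdk7cKO 1 to 4, against 41.4, 38.9, 28.4 and 28.96 CPM in Ctrl 1 to 4. Every CNP-Cdk7cKO library was below every Ctrl library, and within Ctrl the first 2 libraries were well above the other 2. The group means were 21.4 ± 2.23 CPM in CNP-Cdk7cKO and 34.4 ± 6.69 CPM in Ctrl (SD, n = 4 each). The log2 fold change was -0.68 ± 0.13 (SE; edgeR quasi-likelihood adjusted p = 0.007; 95% interval -0.96 to -0.40), which ranked 534 of 15056 genes by p. Bmf was called lower in all 18 alternative analyses, with log2 fold changes between -0.96 and -0.58. In the female libraries alone, with Ctrl 1 as a single control whose spread is taken from the CNP-Cdk7cKO libraries, it was -0.95 ± 0.14 (edgeR quasi-likelihood adjusted p = 0.0188). With the muscle markers as a covariate it was -0.89 ± 0.20 (edgeR quasi-likelihood adjusted p = 0.0494), and the part of muscle tissue in the difference was not tested further.

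Other cell type markers also moved with genotype. Macrophage markers took 0.0499 ± 0.00462% of counts in CNP-Cdk7cKO and 0.0401 ± 0.00377% in Ctrl, with 4 of 10 markers called higher and 0 lower. Fibroblast and perineurial markers took 4.88 ± 0.277% and 4.13 ± 0.250%, in the same order, with 2 of 10 called higher and 0 lower, and of the Schwann cell markers 0 of 10 were higher and 5 lower (SD, n = 4 each; two-sided exact permutation p = 0.0286 for each of these 3 sums, the smallest that 4 against 4 libraries allow, and 0.0952 after Benjamini-Hochberg adjustment over the 10 marker lists). Type I and III collagen genes made up most of the fibroblast and perineurial sum. Of its 10 markers, 7 had a positive and 3 a negative log2 fold change. At an unadjusted edgeR quasi-likelihood p under 0.05, 5 were higher and 2 lower, beside 12.7 and 13.4% of all tested genes. The part of these cell types in the changes of the family members was not tested. The 10 marker lists also held lymphocyte, neutrophil and mast cell, endothelial, adipocyte, erythroid and neuronal genes, whose sums gave exact permutation p between 0.0571 and 0.714 before adjustment. Only 1 of the 8 lymphocyte markers had enough counts to be tested. Skeletal muscle markers were called lower in 15 of 16 and gave an exact permutation p of 0.0571.

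The promoters of both genes that fell, and that of Mcl1 as the most abundant member, which did not pass, are shown side by side. Bmf spans chromosome 2 from 118528757 to 118549687 and Bcl2 chromosome 1 from 106538178 to 106714274, both on the minus strand, and Mcl1 spans chromosome 3 from 95658788 to 95663176 on the plus strand (GRCm38, GENCODE M21). The 250 bases before the start site are given 5′ to 3′ on the strand of the gene, from RefSeq's GRCm38.p6 annotation, for chr2:118549687-118549936 (Bmf, the most upstream of 3 annotated starts), chr1:106714291-106714540 (Bcl2) and chr3:95658471-95658720 (Mcl1). The RefSeq start of Mcl1, 95658721, lies upstream of its GENCODE span, and bases shortly after it were in no GENCODE transcript of Mcl1. Those after the Bmf and Bcl2 starts shown were in a transcript of their gene. Capitals mark each match, on either strand, to the GC box GGGCGG or the CCAAT box CCAAT.
Bmf: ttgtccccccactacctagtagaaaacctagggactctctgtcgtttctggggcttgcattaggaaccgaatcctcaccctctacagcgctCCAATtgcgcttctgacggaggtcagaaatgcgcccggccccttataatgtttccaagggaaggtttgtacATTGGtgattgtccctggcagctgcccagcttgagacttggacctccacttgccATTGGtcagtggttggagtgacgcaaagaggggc
Bcl2: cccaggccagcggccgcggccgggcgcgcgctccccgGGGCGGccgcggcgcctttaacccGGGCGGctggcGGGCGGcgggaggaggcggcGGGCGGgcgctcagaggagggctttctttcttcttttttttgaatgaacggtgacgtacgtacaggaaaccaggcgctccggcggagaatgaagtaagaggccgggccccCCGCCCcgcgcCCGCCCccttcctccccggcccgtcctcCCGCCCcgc
Mcl1: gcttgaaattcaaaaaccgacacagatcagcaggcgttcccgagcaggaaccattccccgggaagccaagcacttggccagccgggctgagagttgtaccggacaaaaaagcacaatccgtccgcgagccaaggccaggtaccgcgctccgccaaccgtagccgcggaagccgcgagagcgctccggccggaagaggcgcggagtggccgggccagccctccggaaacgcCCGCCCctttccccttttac
The Bcl2 window held 7 GC boxes and no CCAAT box, the Bmf window 3 CCAAT boxes and no GC box, and the Mcl1 window 1 GC box. The starts shown for the 2 genes that fell thus shared neither of these motifs. All 10 members matched the table, with 16 annotated starts. GC boxes were present at 8 of the 16 starts, against 32.7% of all 32851 promoter windows of the same length, and CCAAT boxes at 5 of 16, against 33.8%. The E box CACGTG (6.02% of all windows), the cAMP response element TGACGTCA (1.55%) and the TATA box TATAAA (12.4%) were at 0 of the 16 starts. The FOXO element GTAAACA, in 3.17% of all windows, was found at 1 start, that of Bcl2l11. A p53 half-site was found at 1 start, a downstream start of Bmf, against 7.13% of all windows. The windows of members had a median GC content of 60.6%, against 52.4% over all promoters. A match is a string of letters and was not tested as a binding site.

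Among the survival genes, Bcl2 was the 1 that fell. It encodes the founding survival protein of the family, on mitochondria and endoplasmic reticulum. Bcl2 measured 24.1, 24.8, 26.5 and 23.1 CPM in CNP-Cdk7cKO 1 to 4, against 27.97, 27.1, 28.6 and 29.7 CPM in Ctrl 1 to 4. The groups did not overlap, but the gap between the highest CNP-Cdk7cKO and the lowest Ctrl library was smaller than the SD of either group. The means were 24.6 ± 1.42 CPM in CNP-Cdk7cKO and 28.3 ± 1.07 CPM in Ctrl (SD, n = 4 each), and the log2 fold change, -0.20 ± 0.06 (SE), passed with an adjusted p of 0.0419 in the edgeR quasi-likelihood fit. The call was lost in 14 of 18 alternatives, with edgeR quasi-likelihood adjusted p up to 0.571 and log2 fold changes between -0.24 and -0.17. It was lost without any single Ctrl library, and without CNP-Cdk7cKO 1, 2 or 4 (edgeR quasi-likelihood adjusted p from 0.0655 to 0.128), as well as by DESeq2 (0.0607) and limma-voom (0.0533). In every alternative the direction was the same.

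Mcl1 did not pass in either direction. It measured 169.8, 163.4, 171.1 and 148.8 CPM in CNP-Cdk7cKO 1 to 4, against 153.6, 159.3, 162.7 and 154.4 CPM in Ctrl 1 to 4. The groups overlapped, with CNP-Cdk7cKO 4 the lowest of all 8 libraries and CNP-Cdk7cKO 3 the highest. The means were 163.3 ± 10.2 CPM in CNP-Cdk7cKO and 157.5 ± 4.27 CPM in Ctrl (SD, n = 4 each). The log2 fold change was 0.05 ± 0.05 (SE; edgeR quasi-likelihood adjusted p = 0.571), and its 95% interval on the fold scale ran from 0.958 to 1.12, so a level below 0.958 times that of Ctrl lay outside it. The value covers all cells of the nerve, with and without Cdk7, and since each library is scaled to its own size, an equal change of all messengers would not show in any of these genes. Without CNP-Cdk7cKO 4 the log2 fold change of Mcl1 was 0.09 (edgeR quasi-likelihood unadjusted p = 0.0424, adjusted p = 0.187).

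The other survival genes did not pass either. Bcl2l1, which encodes BCL-XL, a survival protein on which many neurons depend, measured 71.6, 74.8, 72.9 and 78.5 CPM in CNP-Cdk7cKO 1 to 4, against 73.1, 68.8, 72.4 and 73.3 CPM in Ctrl 1 to 4. Only CNP-Cdk7cKO 2 and 4 lay above all Ctrl libraries, and the log2 fold change was 0.05 with a 95% interval from -0.05 to 0.15 (edgeR quasi-likelihood adjusted p = 0.531). Bcl2l2, which encodes BCL-W, measured 100.4, 98.9, 91.8 and 85.6 CPM in CNP-Cdk7cKO 1 to 4, against 100.1, 97.9, 102.0 and 98.3 CPM in Ctrl 1 to 4. CNP-Cdk7cKO 3 and 4 were below all Ctrl libraries while CNP-Cdk7cKO 1 and 2 were within their range, and the log2 fold change was -0.08, with a 95% interval from -0.20 to 0.04 (edgeR quasi-likelihood adjusted p = 0.386). It was -0.04 without CNP-Cdk7cKO 4, -0.05 by limma-voom and -0.03 with muscle markers as a covariate. Over the 18 alternatives the log2 fold change of Bcl2l1 ran from 0.02, without CNP-Cdk7cKO 4 and in the female libraries alone, to 0.07, with no call. Mcl1 and Bcl2l1 also make shorter splice forms with a death-promoting role, and counts summed over the gene do not separate those from the survival forms. The annotation lists 2 transcripts for Mcl1 and 9 for Bcl2l1.

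**Figure D2:**
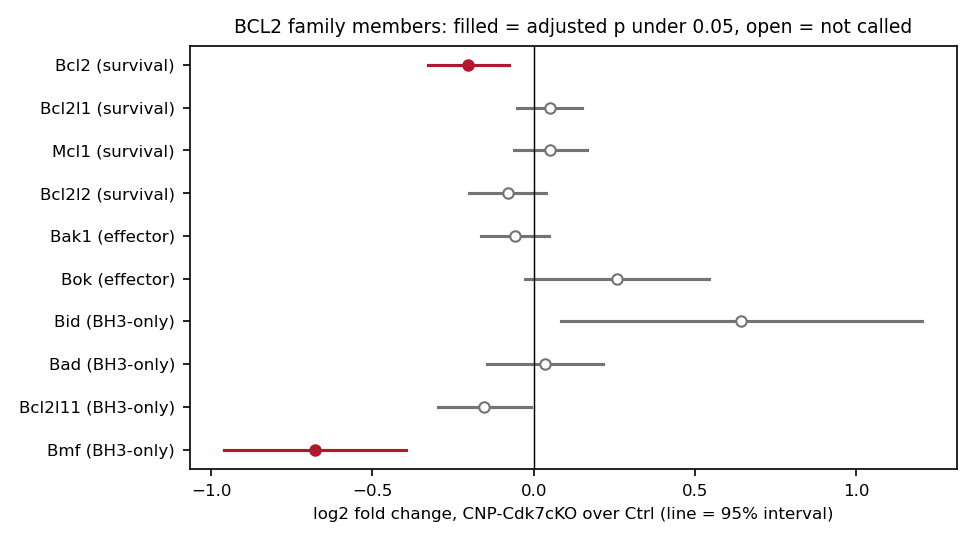
Log2 fold change of each BCL2 family member, CNP-Cdk7cKO over Ctrl (x axis), with its 95% interval from edgeR's quasi-likelihood fit. Filled points are the 2 members called lower, Bmf at -0.68 and Bcl2 at -0.20, and open points are the 8 members that did not pass, of which Bid has the widest interval, 0.08 to 1.20.

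The effector genes encode proteins that form pores in the mitochondrial membrane. Bak1 measured 95.1, 93.1, 102.3 and 103.0 CPM in CNP-Cdk7cKO 1 to 4, against 104.7, 100.4, 99.6 and 105.1 CPM in Ctrl 1 to 4. CNP-Cdk7cKO 1 and 2 were the lowest of the 8 libraries and the groups overlapped, and the log2 fold change was -0.06, with a 95% interval from -0.16 to 0.05 (edgeR quasi-likelihood adjusted p = 0.485). Over the 18 alternatives it ran from -0.11, with muscle markers as a covariate, to -0.03, without CNP-Cdk7cKO 2, with no call. Bok, a relative of Bak1 that also resides at the endoplasmic reticulum, measured 10.1, 9.52, 9.58 and 12.9 CPM in CNP-Cdk7cKO 1 to 4, against 7.96, 7.76, 9.57 and 9.90 CPM in Ctrl 1 to 4. The groups overlapped, with CNP-Cdk7cKO 4 well above the rest. The log2 fold change was 0.26 ± 0.13 with it (SE; edgeR quasi-likelihood adjusted p = 0.236) and 0.14 without it (0.492). It was 0.42 with Xist as a covariate and 0.40 in the female libraries alone, again without a call.

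Among the BH3-only genes other than Bmf, none passed. Bcl2l11 encodes BIM, which binds all survival members and whose gene is a known target of FOXO transcription factors. It measured 16.9, 15.9, 18.1 and 18.2 CPM in CNP-Cdk7cKO 1 to 4, against 19.4, 18.5, 19.1 and 19.7 CPM in Ctrl 1 to 4. Its groups did not overlap, as in 18.8% of all tested genes, yet the log2 fold change of -0.15 ± 0.07 did not pass (SE; edgeR quasi-likelihood adjusted p = 0.166). Bad, whose protein is held inactive by survival kinase signalling, measured 24.9, 26.7, 26.4 and 32.4 CPM in CNP-Cdk7cKO 1 to 4, against 27.3, 27.9, 24.8 and 27.9 CPM in Ctrl 1 to 4. CNP-Cdk7cKO 4 stood above the rest, and the log2 fold change of 0.04 (edgeR quasi-likelihood adjusted p = 0.827) changed sign without that library, to -0.05, without Ctrl 3, to -0.0038, and by limma-voom, to -0.02. In all, 3 of the 10 members (Bmf, Bcl2, Bcl2l11) had groups that did not overlap, each with CNP-Cdk7cKO below Ctrl. Over all 15056 tested genes, CNP-Cdk7cKO lay wholly below Ctrl in 1432 and wholly above in 1406.

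Bid, whose protein carries the signal of death receptors to mitochondria after cleavage by caspase 8, had the lowest counts of the 10. It measured 2.17, 2.18, 2.79 and 3.73 CPM in CNP-Cdk7cKO 1 to 4, from 42 to 76 counts, against 1.22, 2.02, 2.25 and 1.41 CPM in Ctrl 1 to 4, from 20 to 48 counts. The groups overlapped because Ctrl 3 exceeded CNP-Cdk7cKO 1 and 2. The log2 fold change was 0.64 ± 0.25 (SE; edgeR quasi-likelihood adjusted p = 0.134), with a 95% interval from 0.08 to 1.20. It was 0.45 without CNP-Cdk7cKO 4, 0.27 with muscle markers as a covariate, 1.12 with Xist as a covariate and 1.14 in the female libraries alone, with no call in any of these. Bid shares 628 exon bases, 17.7% of its own, with Bcl2l13 on the opposite strand, which held 6316 counts in all against 355 for Bid. The library kit keeps strand, but whether the counting used it is not given in the sources used here, so reads of the 2 genes may not be told apart. Bad shares 20.5% of its exon bases with Gpr137 on the opposite strand, which held 8939 counts in all against 4311 for Bad. Bak1 shares 18.2% with 1 entry of Ggnbp1 and 7.35% with another, both on the opposite strand. Those entries held 1268 and 2751 counts, against 15846 for Bak1.

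CNP-Cdk7cKO 4 stood at an end of its group for most members. It was the lowest of the 4 CNP-Cdk7cKO libraries in 3 members (Bcl2, Mcl1, Bcl2l2) and the highest in 6 (Bcl2l1, Bak1, Bok, Bid, Bad, Bcl2l11), 9 of 10 in all. Over all tested genes this library was lowest or highest in 60.0% of genes, the most of the 4, whose other values lay between 44.7 and 47.8%. Without it, Bmf was the 1 member called, at a log2 fold change of -0.71. The median coefficient of variation over the members was 6.75% in CNP-Cdk7cKO and 3.34% in Ctrl, against 8.89 and 7.57% over all tested genes in the same order.

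Levels of different genes were compared per kilobase of merged annotated exons, since longer messengers give more counts. Mcl1 was the most abundant member in both groups, at 47.8 ± 2.99 CPM per kb in CNP-Cdk7cKO and 46.1 ± 1.25 CPM per kb in Ctrl (SD, n = 4 each). Bak1 followed with 40.9 ± 2.08 and 42.6 ± 1.18 CPM per kb, then Bcl2l2 with 21.1 and 22.3, Bcl2l1 with 16.2 and 15.7 and Bad with 10.8 and 10.5 CPM per kb, in the same group order. Bok and Bmf exchanged places. In CNP-Cdk7cKO, Bok stood at 5.73 ± 0.872 and Bmf at 4.08 ± 0.425 CPM per kb, whereas in Ctrl, Bok stood at 4.78 ± 0.596 and Bmf at 6.55 ± 1.27 CPM per kb. Bcl2 (2.69 and 3.10), Bcl2l11 (2.15 and 2.39) and Bid (0.765 and 0.486 CPM per kb) were lowest in both groups. The ranges of neighbours in this order did not overlap within either group, although Bmf and Bok in Ctrl came close, with a lowest Bmf of 5.41 and a highest Bok of 5.38 CPM per kb. Merged exons overstate the length of any single transcript, so the order between close neighbours depends on the transcripts used.

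Summed by role per kilobase, the 4 survival genes gave 87.8 ± 3.67 CPM per kb in CNP-Cdk7cKO and 87.2 ± 1.46 CPM per kb in Ctrl (SD, n = 4 each). The 2 effector genes gave 46.6 ± 2.68 and 47.3 ± 1.38 CPM per kb in the same order. The 4 BH3-only genes gave 17.8 ± 1.83 CPM per kb in CNP-Cdk7cKO and 19.97 ± 1.54 CPM per kb in Ctrl. The ranges overlapped for each role. Mcl1, Bak1 and Bad gave the largest part of their sums, at 47.8, 40.9 and 10.8 CPM per kb in CNP-Cdk7cKO. Bcl2, at 2.69 CPM per kb there, added little, so its fall could hardly move the survival sum. These sums cover the members alone and leave out the effector gene Bax and the BH3-only genes Bbc3 and Pmaip1, which rose.

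**Figure D3:**
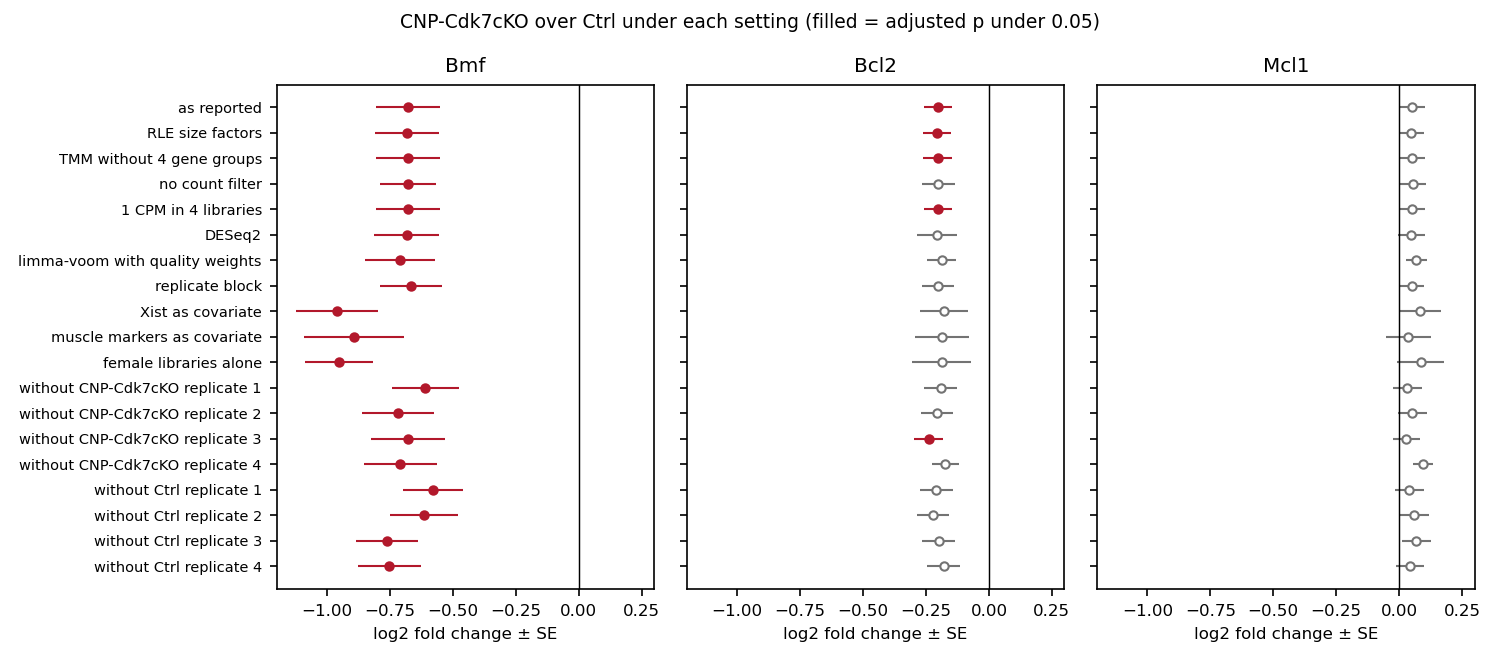
Log2 fold change ± SE of Bmf, Bcl2 and Mcl1, CNP-Cdk7cKO over Ctrl (x axis), as reported and under 18 alternative analyses (rows), filled where the adjusted p is under 0.05. Bmf is filled throughout, between -0.96 and -0.58, Bcl2 keeps its call in 4 alternatives, and Mcl1 lies between 0.03 and 0.09 with no call.

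Among the family members outside the 10, the known p53 targets Bax, Bbc3 and Pmaip1 rose. The effector gene Bax measured 72.2 ± 6.14 CPM in CNP-Cdk7cKO and 48.3 ± 0.977 CPM in Ctrl, Bbc3, which encodes the BH3-only protein PUMA, 21.3 ± 0.238 and 12.2 ± 0.922 CPM, and Pmaip1, which encodes NOXA, a BH3-only protein that targets MCL1, 3.97 ± 0.991 and 0.189 ± 0.0737 CPM (SD, n = 4 each), from 53 to 96 counts in CNP-Cdk7cKO and 2 to 6 in Ctrl. All 3 rose (edgeR quasi-likelihood adjusted p = 0.000266, 0.000105 and 4.25e-05). Bnip3l, a receptor for removal of mitochondria by autophagy, fell by 0.24 on the log2 scale (edgeR quasi-likelihood adjusted p = 0.0128). The Bnip3l call was lost with Xist or muscle markers as a covariate and in the female libraries alone (edgeR quasi-likelihood adjusted p from 0.0689 to 0.190), and that of Bax in the female libraries alone (0.0896). Of the 9 tested genes of this list of 15, the 3 p53 targets rose and 1 other fell. The shares over all tested genes were 5.07% higher and 6.6% lower. For Bnip3, the change of -0.22 missed the threshold (edgeR quasi-likelihood adjusted p = 0.0977). Bik (0.01), Bcl2a1b (0.26), Bcl2l12 (-0.03) and Bcl2l13 (0.04; log2 fold change for each) did not pass, and Bcl2a1b belongs to a group of near-identical copies between which reads can be split. The other 6 (Hrk, Bcl2a1a, Bcl2a1d, Bcl2l10, Bcl2l14, Bcl2l15) had too few counts to be tested.

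**Figure D4:**
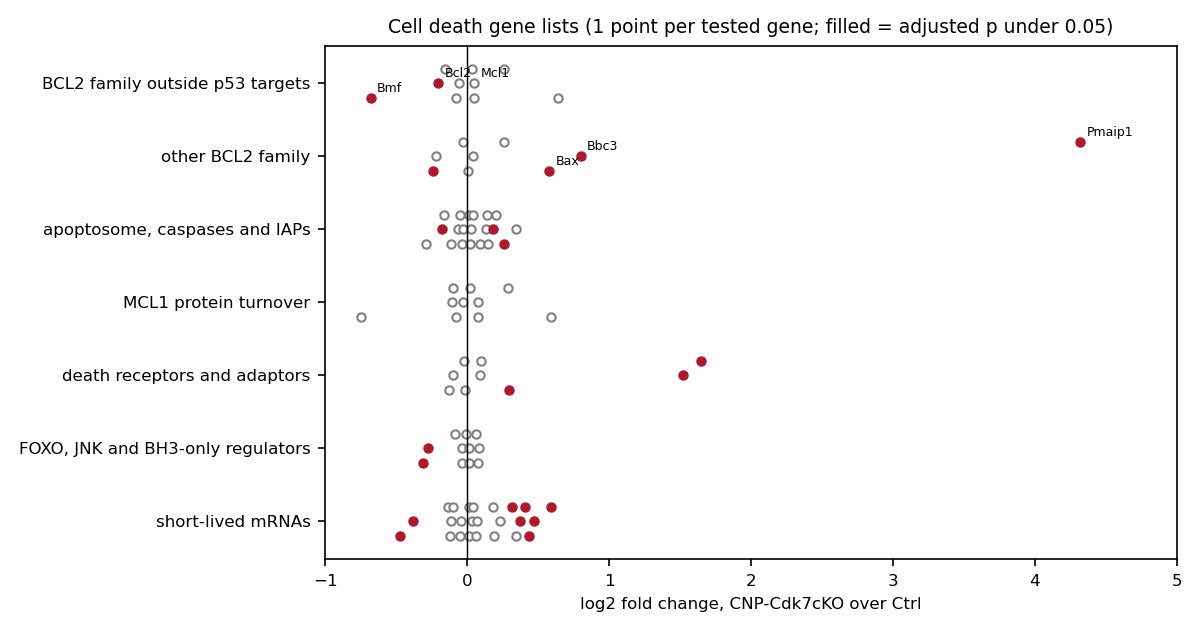
Log2 fold change of each tested gene, CNP-Cdk7cKO over Ctrl (x axis), for the 10 BCL2 family genes outside p53 targets and 6 other gene lists (rows), filled where the adjusted p is under 0.05. Bmf at -0.68 lies furthest left in the top row, and Pmaip1, which had 2 to 6 counts in Ctrl, furthest right in the row below.

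Downstream of the family stand the apoptosome, the caspases and their inhibitors. Of 20 genes tested, 2 rose and 1 fell, beside 5.07 and 6.6% of all tested genes, and the median log2 fold change was 0.02. Diablo (0.26 ± 0.05) and Htra2 (0.18 ± 0.05), whose proteins leave mitochondria and block inhibitors of apoptosis, rose (edgeR quasi-likelihood adjusted p = 0.0042 and 0.0463). Casp9, the caspase of the apoptosome, fell by 0.17 on the log2 scale (edgeR quasi-likelihood adjusted p = 0.0307). The calls of Htra2 and Casp9 were lost in 14 and 12 of 18 alternatives, and that of Diablo in 3, with Xist or muscle markers as a covariate and in the female libraries alone. Of 9 tested death receptor and adaptor genes, 3 rose and 0 fell: Tnfrsf10b (1.65 ± 0.16) and Fas (1.52 ± 0.28), both also p53 targets, and the TNF receptor gene Tnfrsf1a (0.30 ± 0.08; log2 fold change ± SE for each), whose call was lost in 8 of 18 alternatives. The Fas call was lost with Xist as a covariate and in the female libraries alone.

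Genes of MCL1 turnover gave no call and upstream regulators 2. Of 10 genes that control MCL1 protein turnover, 0 passed by edgeR's quasi-likelihood test. At an unadjusted p under 0.05 by that test, 1 rose and 1 fell, beside 12.7 and 13.4% of all tested genes. The ubiquitin ligase gene Huwe1 measured 177.2 ± 5.41 CPM in CNP-Cdk7cKO and 180.6 ± 9.72 CPM in Ctrl, and Usp9x, whose protein removes ubiquitin from MCL1, 74.2 ± 6.07 and 78.4 ± 3.49 CPM (SD, n = 4 each). In the list of FOXO factors, JNK kinases and proteins that hold BH3-only members, 11 genes were tested. Of these 0 rose and 2 fell, beside 5.07 and 6.6% of all tested genes. The 2 were Foxo4 (-0.31 ± 0.05, edgeR quasi-likelihood adjusted p = 0.00204) and Foxo1 (-0.27 ± 0.08, 0.0484). The Foxo1 call was lost in 12 of 18 alternatives and that of Foxo4 in 1, the female libraries alone.

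Mcl1 was set beside 24 other genes with short-lived messengers. Of these 6 rose and 2 fell, beside 5.07 and 6.6% of all tested genes. The median log2 fold change was 0.05, beside 0.05 for Mcl1 itself. The median size of the change regardless of sign was 0.16, beside 0.12 over all tested genes. Ier5 (0.47 ± 0.05), the NF-kappaB inhibitor gene Nfkbia (0.44 ± 0.06) and the AP-1 gene Junb (0.59 ± 0.09) rose, and Klf6, a zinc finger transcription factor gene, fell by 0.48 on the log2 scale (SE; edgeR quasi-likelihood adjusted p = 0.000457, 0.00198, 0.00266 and 0.00593). Each of these 4 calls was lost in 2 or 3 of the 18 alternatives, all of them fits with Xist or muscle markers as a covariate or on the female libraries alone. In all 18 alternatives Mcl1 stayed without a call, with log2 fold changes between 0.03 and 0.09.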

How the data were processed

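RNA of 8 whole sciatic nerve libraries was prepared with a stranded mRNA kit, per the labels' protocols. The authors deposited a table of estimated counts per gene from Salmon, with STAR and build GRCm38 named in the submitters' processing notes but no versions given in the sources used here. Fractional values made up 8.29% of the table, and rounding to whole numbers changed no library total by more than 0.000113%. Genes were matched by symbol.

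Genes were kept by filterByExpr (minimum count 10, minimum total 15), scaled with TMM and tested with edgeR 4.0.16 (quasi-likelihood F test, all 8 libraries, genotype as the single term) in R 4.3.3. P-values were adjusted over all tested genes by the Benjamini-Hochberg method, and intervals use the t distribution at the moderated degrees of freedom. Marker sums were compared by exact permutation of the 8 libraries. The fits were also run on simulated counts with planted fold changes. These counts held no difference in sex or tissue make-up between groups, so they cannot show how the fits deal with either. Alternatives used DESeq2 1.42.0, limma 3.58.1, other scalings and filters, covariates, a replicate block and each library left out.

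The members and gene lists were chosen with earlier results of these data known. Named genes were all 10 members, Cdk7, the tested genes of the wider family and, per list, up to 4 called genes with the smallest p or, with none called, the 2 most abundant. Promoter windows come from RefSeq, and exon lengths and overlaps from GENCODE, both on GRCm38. Replicates differed by more than counting error in every pair, so none was counted as a duplicate.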

Additional observations from a re-analysis of the deposited data

Results flagged for a closer look

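In 68 groups of 4 libraries checked for a library far from the others, 3 were found, and chance gives about 1 in 20. None was a value of the 10 BCL2 family genes outside p53 targets. Bik measured 1.34 CPM in Ctrl 2, against 0.731 to 0.751 CPM in the other Ctrl libraries. Bnip3 measured 20.7 CPM in CNP-Cdk7cKO 1, against 25.5 to 26.1 CPM in the other CNP-Cdk7cKO libraries. Diablo measured 36.3 CPM in Ctrl 2, against 35.1 to 35.2 CPM in the other Ctrl libraries.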

How the results depend on the processing

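Bmf kept its call and Mcl1 stayed without one in all 18 alternatives. The members called lower were 1 instead of 2 with no count filter, with DESeq2, with limma-voom, with the replicate block, with Xist or muscle markers as a covariate and in the female libraries alone, and 1 to 2 with single libraries left out; 0 were called higher throughout. Over all genes, 76 were called higher and 167 lower with Xist as a covariate, 122 and 167 with muscle markers, 37 and 77 in the female libraries alone, and 470 to 655 and 653 to 860 with a library left out. The cause was not tested, and the female comparison and those with a library left out hold fewer libraries. With Xist as a covariate the SE of the log2 fold change was 0.097 for Bcl2, against 0.057 without it. For Diablo it was 0.079, against 0.045. Replicate numbers gave no clear pairing of the libraries, and these values cannot exclude a weak one. Same-numbered libraries correlated at 0.0089 to 0.127, all positive, and other pairs at -0.156 to 0.168, of both signs. The replicate block gave 682 genes higher and 926 lower. Signs that turned were those of small changes: Bad (limma-voom -0.0187; libraries left out -0.0515 to 0.0813), Bik (limma-voom -0.0270, muscle markers -0.0868; left out -0.0780 to 0.276), Huwe1 (Xist 0.0625, muscle markers 0.0546, female libraries 0.0595; left out -0.0558 to 0.00175) and Bcl2l12 (left out -0.0748 to 0.0265). With libraries left out, the difference in marker share of counts, CNP-Cdk7cKO minus Ctrl in percentage points, ran from -0.26 to -0.0913 for muscle, 0.00835 to 0.0116 for macrophages, 0.000123 to 0.000206 for lymphocytes, -0.00273 to 0.000662 for endothelium and -0.00157 to 5.68e-05 for adipocytes. The macrophage sum gave an exact permutation p of 0.0571 in 7 of the 8 cases, and the muscle sum one of 0.0286 without Ctrl 1. Bid had the fewest counts of the members, 20 to 76 a library.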
